A study of Mus musculus with 6 samples.

Results

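The CREB, CRTC and SIK genes form the transcriptional arm of cAMP signalling, and 10 of them were followed in islets of the mouse pancreas, the small bodies that hold its insulin, glucagon and somatostatin cells. They were the CREB family factors Creb1, Crem and Atf1, the coactivators Crtc1, Crtc2 and Crtc3, the salt-inducible kinases Sik1, Sik2 and Sik3, and Ppargc1a. They were chosen by gene symbol from 23179 gene rows with 22923 distinct symbols. Each of the 10 symbols stood on a single row, and all 10 were tested, since none had an average under 1 FPKM across the 6 libraries. FPKM count sequenced fragments relative to transcript length and library size, so that levels of different genes can be set side by side.

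The libraries held total RNA of islets. There were 3 libraries from Ffar3-/- mice (KO), which lack a G protein-coupled receptor for short-chain fatty acids, and 3 from wildtype mice (WT). All mice were C57BL/6J males, between 10 and 14 weeks old. The series describes them as biological replicates, and each library was made from islets pooled from 2 pancreata. Besides the Ffar3 deletion, no treatment of either group is given in the labels. They name no day of islet isolation or sequencing, so such a batch and the genotype cannot be told apart. Wherever 3 values of a group follow each other, they are those of replicates 1, 2 and 3 in that order.

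When cAMP rises in a cell, protein kinase A phosphorylates CREB on DNA-bound cAMP response elements and also inhibits the salt-inducible kinases. The SIKs otherwise phosphorylate the CRTC coactivators and hold them in the cytoplasm. CRTCs freed by cAMP and by calcineurin, the calcium-dependent phosphatase, enter the nucleus and join CREB. Ffar3 signals through inhibitory G proteins, which lower cAMP, and in beta cells the axis is known for linking glucose and incretin hormones to gene expression. All of this regulation is on the proteins, which were not measured here.

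The targeted gene Ffar3 was listed at 0, 0 and 0.105 FPKM in KO, against 4.69, 5.26 and 6.68 FPKM in WT, which matched the labels. The beta cell peptide gene Iapp measured 27415 to 33357 FPKM in KO and 34745 to 36606 FPKM in WT. The alpha cell hormone gene Gcg measured 6474 to 12436 FPKM in KO and 18617 to 22807 FPKM in WT. Gcg did not pass the test (log2 difference -1.20, limma adjusted p = 0.0700). Of 6 tested alpha cell markers, 2 were called lower, beside 19.6% of all tested genes. Ins2 was listed at 0 throughout. Ins1 was listed at 0 in KO replicate 1 and every WT library, but at 43721 and 48334 FPKM in KO replicates 2 and 3. Islets with Iapp at these levels cannot lack insulin transcripts, so the insulin values were not taken as levels. Of 9 tested beta cell markers, Ins1 among them, 3 were called lower, namely Mafa (log2 difference -1.63), Ucn3 (-0.86) and Nkx6-1 (-0.66). That is 33.3% called, beside 39.9% of all tested genes called and 19.6% called lower. Pdx1 (-0.14), Slc2a2 (-0.24), Slc30a8 (-0.004), G6pc2 (0.07) and Iapp (-0.22) did not pass. The KO libraries were not alike in their other cells. The summed level of 16 acinar (digestive enzyme) markers was 21070, 209416 and 446176 FPKM in KO replicates 1, 2 and 3, against 22442 to 35327 FPKM in WT; Amy2b was the marker listed at 0, in KO replicates 2 and 3, and 0 of the 16 passed the test. The summed level of 8 B and T cell markers was 83.5, 145 and 16.3 FPKM in KO replicates 1, 2 and 3, against 6.68 to 7.90 FPKM in WT, where Ms4a1, Cd3d and Cd3e were listed at 0. KO replicate 1 thus had an acinar level below every WT library, and KO replicate 3 had the lymphoid level nearest to WT. Total depth is unknown; from the steps between low values, 1 FPKM stood for 59.6% as many fragments in KO replicate 3 as in WT replicate 1, and for 89.5% to 119% in the other libraries. Values are of whole islets, in which fewer cells of a type and less RNA per cell cannot be told apart.

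The question was whether transcripts of the axis differ between KO and WT islets. Sik1 was lower in KO islets, at 0.516 times the WT mean, while its paralogues Sik2 and Sik3 were higher, at 1.79 and 1.73 times. Among the coactivators Crtc1 was lower at 0.782 times, Crtc3 higher at 1.21 times, and Crtc2 did not pass the test. None of the 3 CREB family factors passed, and Ppargc1a, whose KO mean was 1.86 times the WT mean, narrowly missed the threshold. In all, 3 members were called higher and 2 lower by limma on log2(FPKM + 1) at an adjusted p under 0.05. Over all 11669 tested genes 39.9% were called, with 20.3% higher and 19.6% lower in KO, so 5 called members of 10 is near the share of all genes, and the count does not set the axis apart. With libraries rescaled to equal sums outside the acinar list, the 2368 higher and 2289 lower calls over all genes became 558 higher and 1293 lower, or 620 and 1088 with the insulin rows left out as well. The insulin rows add to the sums of the first rescaling in KO replicates 2 and 3 only. The 16 acinar genes held 30.0% and 42.2% of the summed FPKM in KO replicates 2 and 3, where whole sums were 698280 and 1056340 FPKM. In the other libraries they held 5.05% to 7.82% of 416935 to 451899 FPKM. The sums left by either rescaling thus stayed highest in KO replicates 2 and 3, and every gene there was scaled down. What fills these remaining sums was not tested. KO and WT libraries did not overlap in 7 of the 10 members, against 56.3% of all tested genes. The median log2 difference of the members was 0.22, and that of all tested genes -0.01. In KO replicate 1 alone, the KO library without high acinar transcripts, 2 members were called higher and 2 lower, assuming that this library varies like those of WT.

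**Figure D1:**
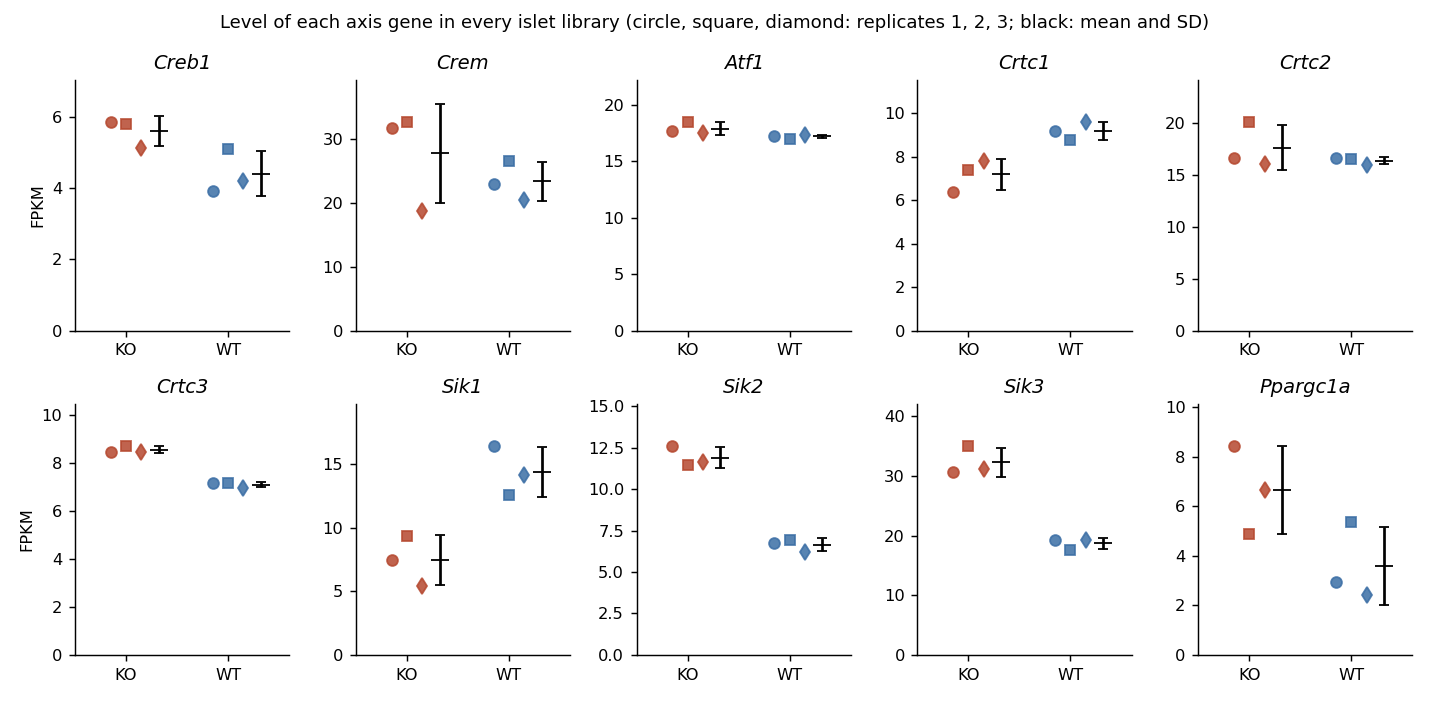
Level of each axis gene in FPKM in the 3 KO libraries (left, red) and the 3 WT libraries (right, blue), with the mean and SD in black. Sik2 and Sik3 lie higher and Sik1 and Crtc1 lower in KO with no overlap, whereas Crem, Crtc2 and Ppargc1a overlap between the groups.

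Among the kinases, Sik1, the member that cAMP itself induces through CREB in other tissues, measured 7.50, 9.37 and 5.44 FPKM in KO, against 16.4, 12.6 and 14.2 FPKM in WT. Every KO library lay below every WT library, and KO replicate 3 was lowest. The log2 difference was -0.89 (SE 0.18, limma adjusted p = 0.00900), and 5.41% of tested genes had a larger difference in either direction. In KO replicate 1 alone, where the acinar sum was below that of every WT library, it was -0.85. Sik1 lies on the minus strand at chr17:31844250-31855804 (GENCODE M21, GRCm38) and shares no exon base with another annotated gene. The call held in each of the 18 alternatives run. Some of them barely differ from the main fit: other filters leave the difference itself unchanged, and median-of-ratios factors gave -0.88.

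Sik2, a kinase abundant in fat and in beta cells that phosphorylates CRTC2, measured 12.6, 11.4 and 11.6 FPKM in KO, against 6.76, 6.96 and 6.21 FPKM in WT. The groups were far apart relative to their spread, with a coefficient of variation of 5.24% in KO and 5.82% in WT. On the log2 scale the difference was 0.75 (SE 0.07, limma adjusted p = 0.000657). Sik2 lies at chr9:50892801-51009073 on the minus strand and shares 1429 exon bases with Ppp2r1b, a phosphatase subunit gene on the opposite strand, and the strand setting of the libraries is not given in the sources used here. Ppp2r1b itself was at 13.1 ± 0.650 FPKM in KO and 13.7 ± 0.254 FPKM in WT (SD, n = 3 each; log2 difference -0.06, limma adjusted p = 0.451).

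Sik3, the broadly expressed member of the family, measured 30.6, 35.0 and 31.1 FPKM in KO, against 19.3, 17.6 and 19.2 FPKM in WT. The lowest KO library lay well above the highest WT library. The log2 difference was 0.75 (SE 0.07, limma adjusted p = 0.000768), close to that of Sik2. Sik3 lies on the plus strand of the same chromosome at chr9:46012820-46224194, 4.67 megabases from Sik2. In KO replicate 1 alone the differences were 0.83 for Sik2 and 0.68 for Sik3. The part of acinar and lymphoid transcripts in these values was not tested. With equal sums outside the acinar list Sik2 and Sik3 were not called (limma adjusted p = 0.0662 and 0.0775). Their differences were then 0.53 and 0.51, where the median of all genes was -0.23. With the insulin rows left out as well, both were called (0.61 and 0.59, limma adjusted p = 0.0319 and 0.0337). Both were also called with the acinar level as a covariate (0.81 and 0.72, limma adjusted p = 0.00141 and 0.00255).

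The promoters of Sik2 and Sik3, which rose together, are shown beside those of a pair of genes known as CREB targets, Nr4a1 and Sst (RefSeq, GRCm38.p6). Each runs from 250 bases before to 50 bases after the annotated start, on the strand of the gene. Capitals mark TGACG, the core of the cAMP response element, on either strand (CGTCA on the other), and where cores overlap the full palindrome TGACGTCA. The regions are chr9:51009024-51009323 (minus) for Sik2, chr9:46012570-46012869 (plus) for Sik3, chr15:101266596-101266895 (plus) for Nr4a1 and chr16:23890795-23891094 (minus) for Sst.
Sik2: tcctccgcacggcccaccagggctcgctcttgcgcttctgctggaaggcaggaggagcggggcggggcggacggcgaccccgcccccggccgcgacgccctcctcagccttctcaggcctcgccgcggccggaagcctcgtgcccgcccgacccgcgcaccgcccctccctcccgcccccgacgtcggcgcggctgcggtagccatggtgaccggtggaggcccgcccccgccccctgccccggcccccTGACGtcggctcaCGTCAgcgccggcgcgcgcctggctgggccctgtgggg
Sik3: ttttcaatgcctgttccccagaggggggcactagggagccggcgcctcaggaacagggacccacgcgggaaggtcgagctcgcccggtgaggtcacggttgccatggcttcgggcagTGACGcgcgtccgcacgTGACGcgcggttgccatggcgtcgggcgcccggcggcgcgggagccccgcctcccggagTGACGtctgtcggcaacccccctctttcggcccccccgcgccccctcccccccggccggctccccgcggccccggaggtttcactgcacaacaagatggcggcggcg
Nr4a1: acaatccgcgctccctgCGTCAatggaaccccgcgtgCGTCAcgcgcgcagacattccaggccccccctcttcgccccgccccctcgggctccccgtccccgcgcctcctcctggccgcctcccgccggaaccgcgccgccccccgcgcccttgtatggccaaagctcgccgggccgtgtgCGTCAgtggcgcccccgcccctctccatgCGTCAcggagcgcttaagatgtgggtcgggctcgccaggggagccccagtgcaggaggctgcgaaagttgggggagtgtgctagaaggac
Sst: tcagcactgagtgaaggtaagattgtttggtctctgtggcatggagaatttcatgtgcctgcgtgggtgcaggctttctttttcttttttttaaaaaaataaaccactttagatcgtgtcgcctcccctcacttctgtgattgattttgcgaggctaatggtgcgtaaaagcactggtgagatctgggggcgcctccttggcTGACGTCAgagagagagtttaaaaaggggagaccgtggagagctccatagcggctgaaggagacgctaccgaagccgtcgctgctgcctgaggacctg

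The Sik2 window held 2 cores, starting 1 base before and at base 13 after the start. The Sik3 window held 3, starting 133, 116 and 57 bases before the start. Nr4a1 had 4 cores, 2 of them within 69 bases of the start, and Sst had the palindrome 48 bases before it. Of the 7 members in the promoter table, 4 held a core (Atf1, Sik2, Sik3 and Ppargc1a) and 0 the palindrome. Crem, Crtc2 and Sik1 were not in the table. Over all 32851 promoters of the same length, 20.8% held a core and 1.79% the palindrome. A core contains a CpG, and the Sik2 window was 80.0% G and C, so a match is a description of these letters only.

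Within each library, the make-up of the SIK family differed between the groups. Sik1 made up 14.8%, 16.8% and 11.3% of the summed SIK FPKM in KO, against 38.7%, 33.8% and 35.8% in WT. Such a share does not depend on how the libraries were scaled to each other. The mean difference was -21.8 percentage points, and the exact two-sided permutation test gave p = 0.1, the smallest that 3 against 3 libraries allow. Sik3 took 62.6% ± 2.11 in KO and 47.1% ± 1.56 in WT, and Sik2 23.2% ± 2.33 and 16.8% ± 1.70 (SD, n = 3 each). The Sik3 to Sik1 ratio was 4.52 ± 1.06 in KO and 1.31 ± 0.121 in WT, whereas the Sik3 to Sik2 ratio was 2.72 ± 0.318 in KO and 2.82 ± 0.278 in WT and overlapped between the groups. The summed SIK level was 48.2 to 55.8 FPKM in KO and 37.1 to 42.5 FPKM in WT.

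**Figure D2:**
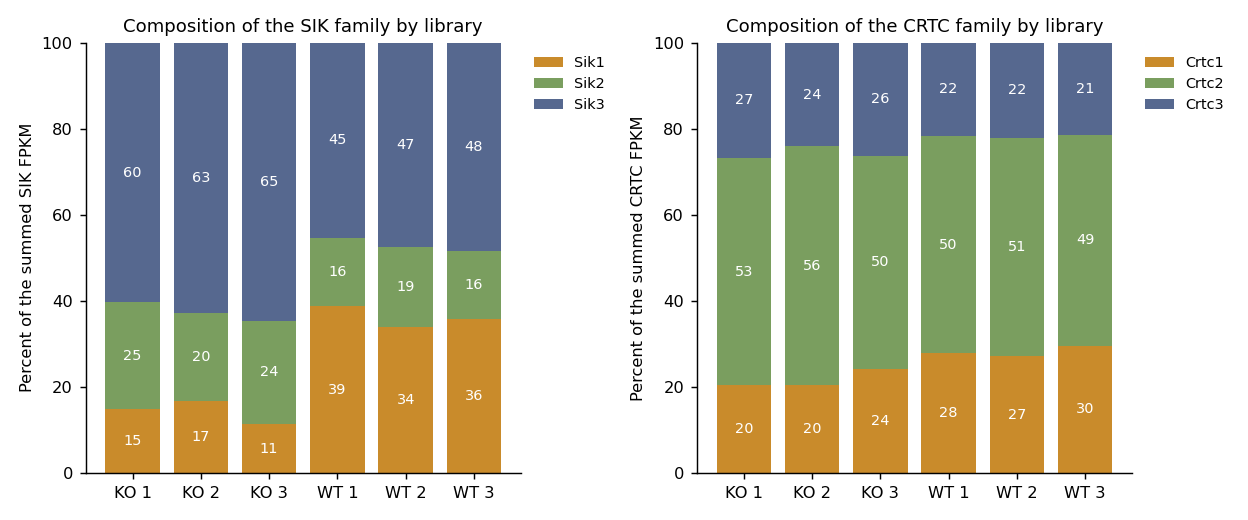
Share of each gene in the summed FPKM of its family, in percent, for the SIK kinases (left) and the CRTC coactivators (right), in KO replicates 1 to 3 and then WT replicates 1 to 3. The Sik1 share lies between 11.3% and 16.8% in KO libraries and between 33.8% and 38.7% in WT libraries, while the Crtc2 share is about equal in both groups.

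Among the coactivators, Crtc1, the form best known from neurons, measured 6.40, 7.38 and 7.81 FPKM in KO, against 9.20, 8.78 and 9.62 FPKM in WT. All KO libraries lay below all WT libraries, KO replicate 1 lowest. Its log2 difference was -0.32 (SE 0.08, limma adjusted p = 0.0203). Crtc1 lies at chr8:70382355-70439579 on the minus strand. Leaving out WT replicate 1 or WT replicate 3 ended the call (adjusted p = 0.0721 and 0.0843), with differences of -0.32 and -0.29.

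Crtc2, the coactivator known for glucose control in liver and for CREB activity in beta cells, measured 16.6, 20.1 and 16.1 FPKM in KO, against 16.6, 16.5 and 15.9 FPKM in WT. KO replicate 2 stood above the rest and the groups overlapped. The log2 difference was 0.09 (95% interval -0.11 to 0.30, limma adjusted p = 0.405), and it turned to -0.14 with equal sums outside the acinar list.

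Crtc3, a coactivator also active in fat, measured 8.46, 8.73 and 8.49 FPKM in KO, against 7.16, 7.16 and 6.98 FPKM in WT. The difference was small but the groups were tight, with coefficients of variation of 1.72% in KO and 1.51% in WT. KO exceeded WT by 0.24 on the log2 scale (SE 0.05, limma adjusted p = 0.0136). The call was lost with equal sums outside the acinar list (0.02, adjusted p = 0.950), the same with insulin rows left out (0.09, adjusted p = 0.677), in KO replicate 1 alone (0.22, adjusted p = 0.0776), and without WT replicate 1 (adjusted p = 0.0544) or WT replicate 3 (0.0651). Crtc3, at chr7:80586627-80688877, is on the chromosome of the targeted gene, 49.73 megabases from Ffar3.

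The CRTC sum was 33.4 ± 2.52 FPKM in KO and 32.7 ± 0.287 FPKM in WT (SD, n = 3 each). Crtc2 made up 52.7% ± 2.94 of it in KO and 50.1% ± 0.988 in WT (exact two-sided permutation p = 0.3). Crtc1 made up 20.3%, 20.4% and 24.1% in KO, against 27.9%, 27.1% and 29.6% in WT, with no overlap. Crtc3 took 25.7% ± 1.45 in KO and 21.7% ± 0.313 in WT.

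Of the DNA-binding factors, Creb1, the main cAMP-responsive activator, measured 5.87, 5.81 and 5.13 FPKM in KO, against 3.93, 5.11 and 4.19 FPKM in WT. KO replicate 3 and WT replicate 2 nearly met. The log2 difference of 0.29 (SE 0.10) had a limma adjusted p of 0.0535. It passed with a robust variance prior (adjusted p = 0.0481), with array weights (0.0430), and without KO replicate 3 (0.0483) or WT replicate 2 (0.0297). In the other 14 alternatives it did not pass. The difference was 0.09 with equal sums outside the acinar list (adjusted p = 0.763) and 0.16 with the insulin rows left out as well (0.536). Leaving out WT replicate 1 or WT replicate 3 gave 0.23 and 0.27 (adjusted p = 0.170 and 0.160).

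Crem, whose promoters give rise to activators and, from an internal start, to the inducible repressor ICER, measured 31.8, 32.8 and 18.8 FPKM in KO, against 23.1, 26.6 and 20.5 FPKM in WT. KO replicates 1 and 2 were the highest of all libraries and KO replicate 3 the lowest. The log2 difference was 0.21 (95% interval -0.29 to 0.70, limma adjusted p = 0.447), without KO replicate 3 it was 0.46 (adjusted p = 0.0221), and with equal sums outside the acinar list it turned to -0.03. The lymphoid sum had the same order among KO libraries, high in replicates 1 and 2. So did the summed macrophage markers (57.5, 130 and 29.4 FPKM in KO) and endothelial markers (102, 118 and 96.3 FPKM in KO). The part of any of these cells in the Crem values was not tested. The annotation has 39 Crem transcripts, the gene-level value does not separate activator from repressor forms, and 472 exon bases are shared with Gm6225 on the opposite strand.

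Atf1, the third CREB relative, measured 17.7, 18.5 and 17.5 FPKM in KO, against 17.3, 17.0 and 17.3 FPKM in WT. Atf1 had the smallest difference of the 10 members. Its log2 difference was 0.05 (95% interval -0.06 to 0.17, limma adjusted p = 0.401), and it turned to -0.18 with equal sums outside the acinar list. Of all tested genes 87.0% had a larger difference.

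Ppargc1a encodes the coactivator PGC-1alpha, which drives mitochondrial and fasting genes and is a CREB target in liver. It measured 8.43, 4.89 and 6.64 FPKM in KO, against 2.95, 5.36 and 2.42 FPKM in WT. WT replicate 2 lay above KO replicate 2, so the groups overlapped. The difference on the log2 scale was 0.77 (SE 0.26, 95% interval 0.16 to 1.38, limma adjusted p = 0.0511). It passed without WT replicate 2 (1.03, adjusted p = 0.0197), without KO replicate 2 (0.94, adjusted p = 0.0465), with a pseudocount of 0.1 (0.0477), a filter at 5 FPKM (0.0466), array weights (0.0464) or the acinar level as a covariate (0.0432).

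**Figure D3:**
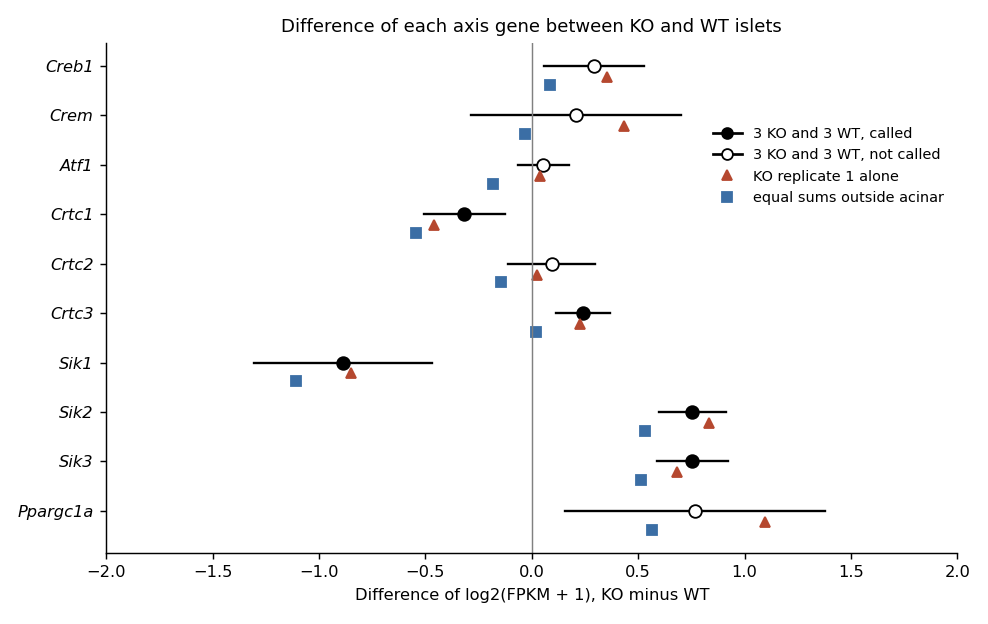
Difference of log2(FPKM + 1) between KO and WT for each axis gene, with the 95% interval of the limma fit (filled circle, called; open circle, not called), the value for KO replicate 1 alone (triangle) and the value after rescaling to equal sums outside the acinar list (square). Sik1 and Crtc1 lie below 0 and Sik2 and Sik3 above 0 by all 3 values.

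In level, the order in KO was Sik3, Crem, Atf1, Crtc2, Sik2, Crtc3, Sik1, Crtc1, Ppargc1a and Creb1, and in WT it was Crem, Sik3, Atf1, Crtc2, Sik1, Crtc1, Crtc3, Sik2, Creb1 and Ppargc1a. In KO the neighbours from Crtc3 down to Creb1 overlapped across libraries, as did Sik3 with Crem and Atf1 with Crtc2. In WT only Crtc2 with Sik1 and Creb1 with Ppargc1a overlapped among neighbours. Sik2 stood at the 57.3 percentile of tested genes in KO and the 40.1 percentile in WT, Sik3 at the 82.8 and 71.2 percentiles, and Sik1 at the 42.4 and 64.0 percentiles.

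The genes most like each called member were found by the root-mean-square distance between log2(FPKM + 1) profiles, each taken relative to its WT mean, over the 6 libraries and 10758 candidate genes. For Sik1 they were the AP-1 gene Junb, the p53-induced death gene Bbc3 and the nuclear receptor coactivator gene Pnrc1, at distances of 0.13, 0.14 and 0.14. Junb measured 172, 164 and 107 FPKM in KO, against 311, 227 and 296 FPKM in WT, so that it shared with Sik1 the low KO replicate 3 and the low WT replicate 2. For Sik2 they were Fam59a, Tor3a and Irak2, and for Sik3 Gas2l1, Cyb561d1 and the actinin gene Actn4, at distances of 0.02 to 0.05. For Crtc1 they were Lamtor2, Klf12 and Spag1, and for Crtc3 Mtap7, Slc27a4 and Picalm, at distances up to 0.03.

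Most of the tested genes known as CREB targets fell. Of 28 listed, 24 were tested, 17 fell and 2 rose, which is 79.2% called against 39.9% of all tested genes, of which 19.6% were called lower. The median log2 difference was -1.08, against -0.01 over all tested genes, and in KO replicate 1 alone the counts were again 17 and 2, with a median of -0.88. Several of these immediate early genes were known to be low in KO when the list was chosen, they respond to MAP kinase and calcium as well as cAMP, and the list is no independent evidence of direction. The nuclear receptor gene Nr4a2 measured 5.68, 5.16 and 4.47 FPKM in KO, against 23.2, 17.9 and 19.8 FPKM in WT (log2 difference -1.80, limma adjusted p = 0.000325). Its relative Nr4a1, shown above and named after its values were seen, measured 94.0, 69.8 and 54.1 FPKM in KO, against 552, 436 and 490 FPKM in WT (log2 difference -2.77, limma adjusted p = 0.000370). In each of these 2 genes KO replicate 3 was the lowest library, WT replicate 2 was the lowest WT library, and the groups did not overlap. The clock gene Per1 had a log2 difference of -2.18 and the synaptic activity gene Arc -2.09. Irs2, the insulin receptor substrate through which CREB is known to sustain beta cells, was named after its values were seen; it measured 18.3, 12.3 and 11.1 FPKM in KO, against 52.3, 39.8 and 56.0 FPKM in WT (log2 difference -1.77, SE 0.20, limma adjusted p = 0.00129).

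The 2 targets that rose were Rgs2, a brake on G protein signalling, and Vgf, a secretory granule peptide gene. Rgs2 was at 54.1 ± 10.1 FPKM in KO and 35.6 ± 0.649 FPKM in WT, and Vgf at 32.9 ± 7.55 FPKM in KO and 19.8 ± 2.85 FPKM in WT (SD, n = 3 each; limma adjusted p = 0.0108 and 0.0197). After rescaling to equal sums outside the acinar list, 0 targets were called higher and 17 lower. Somatostatin (Sst), whose promoter is shown above, was at 3243 ± 1125 FPKM in KO and 5155 ± 142 FPKM in WT and did not pass (log2 difference -0.72, limma adjusted p = 0.0835). Sst is also a delta cell marker. Of the other delta cell markers, Hhex was called lower (-0.90, limma adjusted p = 0.0119) and Rbp4 did not pass (-0.51, limma adjusted p = 0.0581). The part of delta cells in the Sst values was not tested. A promoter core was found in 18 of the 23 targets in the promoter table, against 23.0% of all 27025 genes in it, but genes are known as CREB targets partly through such elements.

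**Figure D4:**
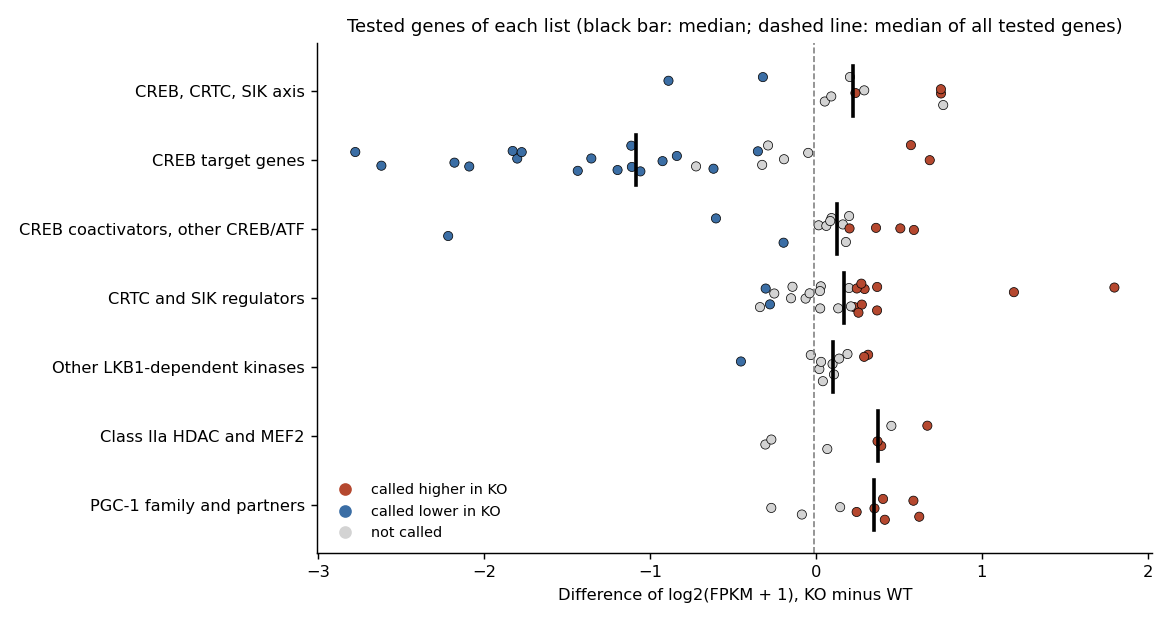
Difference of log2(FPKM + 1) between KO and WT for the tested genes of the axis and of 6 related lists, red where called higher in KO, blue where called lower and grey where not called. Most CREB target genes lie below 0 (median -1.08), while the other lists have medians between 0.10 and 0.37, beside -0.01 for all tested genes.

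Other CREB and ATF factors and coactivators had 4 higher and 3 lower of 14 tested, or 50.0% called beside 39.9% of all tested genes, and 0 higher and 2 lower with equal sums outside the acinar list. The stress-induced Atf3 was at 48.8 ± 15.5 FPKM in KO and 223 ± 8.29 FPKM in WT, and Atf4, the effector of the integrated stress response, at 268 ± 26.9 FPKM in KO and 406 ± 14.3 FPKM in WT (SD, n = 3 each). Nono, a nuclear partner of CRTCs, also fell (log2 difference -0.19, limma adjusted p = 0.0341). Among the factors that are made as membrane proteins, Atf6, Creb3 and Creb3l1 rose, with log2 differences of 0.51, 0.36 and 0.59. Atf6 was at 38.5 ± 1.23 FPKM in KO and 26.7 ± 0.991 FPKM in WT (SD, n = 3 each). Creb3l2 of the same class did not pass (log2 difference 0.18, limma adjusted p = 0.0845), and Creb3l3 and Creb3l4 were too low to be tested. The acetyltransferase genes Crebbp and Ep300, which join phosphorylated CREB, did not pass (log2 differences 0.02 and 0.20, limma adjusted p = 0.897 and 0.0635).

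Among 24 genes that act on CRTCs and SIKs, 10 were higher and 2 lower, or 50.0% called beside 39.9% of all tested genes, of which 20.3% were higher. Stradb, a pseudokinase partner of the SIK-activating kinase LKB1, measured 6.44, 7.20 and 7.20 FPKM in KO, against 2.74, 2.49 and 2.20 FPKM in WT (log2 difference 1.19, SE 0.09, limma adjusted p = 0.000370). LKB1 itself (Stk11) was at 52.4 ± 4.39 FPKM in KO and 51.3 ± 1.47 FPKM in WT (adjusted p = 0.779). Of the calcineurin genes, the regulatory subunit Ppp3r1 and the catalytic subunit Ppp3ca were higher (log2 differences 0.37 and 0.23), the catalytic subunit Ppp3cb was lower (-0.30), and the catalytic subunit Ppp3cc did not pass (-0.34, limma adjusted p = 0.0899). The protein kinase A catalytic gene Prkaca was lower, at 46.9 ± 4.11 FPKM in KO and 56.8 ± 1.51 FPKM in WT, whereas its more abundant paralogue Prkacb, at 180 ± 21.3 FPKM in KO and 155 ± 8.66 FPKM in WT, did not pass (SD, n = 3 each; log2 difference 0.21, limma adjusted p = 0.119). Sfn, an epithelial phosphoserine-binding protein, measured 7.08, 19.3 and 19.0 FPKM in KO, against 2.82 to 3.81 FPKM in WT. The summed level of 8 duct markers was 174, 223 and 229 FPKM in KO replicates 1, 2 and 3, against 162 to 175 FPKM in WT, most of it from Krt7, which was at 121 ± 9.36 FPKM in KO and 135 ± 3.51 FPKM in WT (SD, n = 3 each). Of 6 duct markers tested, Krt19 passed, at 3.35, 23.3 and 30.8 FPKM in KO, against 0.825 to 1.12 FPKM in WT; Sox9 and Muc1 were also highest in KO replicates 2 and 3, as Sfn was. The part of duct cells in the Sfn values was not tested. With equal sums outside the acinar list 2 of the 24 were called higher and 0 lower, where 558 of all 11669 genes were higher, and 4 and 3 were higher without WT replicate 1 and WT replicate 3. Their median log2 difference was 0.17, and -0.04 under that rescaling.

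Of 11 other kinases that LKB1 activates, 2 were higher and 1 lower, or 27.3% called, below the 39.9% of all tested genes, and 0 were higher with equal sums outside the acinar list. Mark3 (log2 difference 0.29) and the AMP-activated kinase gene Prkaa1 (0.32) rose, and Mark1 (-0.45) fell. Class IIa histone deacetylases, which SIKs also phosphorylate, and their MEF2 partners had 3 higher and 0 lower of 7 tested, or 42.9% called, near the 39.9% of all tested genes, and 0 higher and 1 lower with equal sums outside the acinar list. Hdac5 measured 55.9, 50.4 and 47.0 FPKM in KO, against 31.0, 33.4 and 30.5 FPKM in WT (log2 difference 0.67, SE 0.08, limma adjusted p = 0.00139), and Mef2d and Mef2a rose by 0.37 and 0.39.

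Partners of PGC-1alpha had 6 higher and 0 lower of 9 tested, beside 20.3% higher and 19.6% lower of all tested genes, with a median log2 difference of 0.35, and 4 higher when KO replicate 2, KO replicate 3 or any 1 WT library was left out. Foxo1, a forkhead factor of fasting and insulin signalling, measured 21.7, 23.4 and 22.4 FPKM in KO, against 14.2, 13.8 and 15.9 FPKM in WT (log2 difference 0.59, SE 0.07, limma adjusted p = 0.00149). Nrf1, a regulator of nuclear genes for mitochondria, rose by 0.42 and Hnf4a, an endodermal nuclear receptor, by 0.62. In KO replicate 1 alone 3 of the 9 were higher, and with equal sums outside the acinar list 0 were, where the median of the list was 0.13 beside -0.23 for all genes.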

How the data were processed

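Each library came with 1 table of values per gene. TopHat2 2.0.8b, Cuffdiff 2.1.1 and build mm10 are named in the submitters' processing notes, and the deposited values were taken as FPKM for that reason and because they are decimals with unequal sums. No source used here gives the unit, the annotation, the strand setting or how libraries were scaled to each other. In the values themselves, the median ratio of genes to their average over libraries was 0.995 to 1.005 in every library. The sums ran from 416935 to 1056340 FPKM. The deposited values thus lay at a common median level and not at equal sums. Sample titles gave the genotype and the replicate number. With the values as deposited, the fit was limma 3.58.1 in R 4.3.3 on log2(FPKM + 1), a scale that understates changes of low genes, over rows averaging 1 FPKM or more. It had genotype as its term, leaving 4 residual degrees of freedom, and a mean-variance trend. Two-sided p-values were adjusted by Benjamini-Hochberg over 11669 rows, and "called" means under 0.05. The fit was also run on simulated data with independent noise, few changed genes and no difference in cell make-up between libraries. These libraries differ from that setting, so the simulation does not show how the fit behaves on them. P-values measure the spread between these libraries only. Family shares were compared by exact permutation. The alternatives were another pseudocount, other filters, rescalings, variance settings, a replicate block, an acinar covariate, KO replicate 1 alone, and leaving out each library. A planned comparison of the proteins was not made.

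The members and gene lists were chosen with earlier results of these data known. Named genes were all members, up to 3 called genes of the smallest p in each direction per list, and the 3 genes of nearest profile to each called member; Nr4a1, Irs2, Sst, Crebbp, Ep300, Stk11, Ppp3ca, Ppp3cc, Prkacb, Creb3l2, Creb3l3, Creb3l4, the overlapping gene Ppp2r1b and the cell type markers were named outside that rule, after their values were seen. Gene positions are those of GENCODE M21 (GRCm38, of which mm10 is the other name), and promoters are from RefSeq on GRCm38.p6. Python 3.11.15, pandas 2.3.3 and matplotlib 3.10.9 were used.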

Additional observations from a re-analysis of the deposited data

How the results depend on the processing

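Of the axis genes, Sik1 kept its direction and call in all 18 alternatives, and Sik2 and Sik3 in all but equal sums outside the acinar list. That rescaling moved the median of all genes to -0.23 on the log2 scale (-0.15 with the insulin rows left out as well). Under it 0 members and 0 CREB targets were called higher, with Sik2 at 0.53, Sik3 at 0.51, Crtc3 at 0.018, and Crem, Atf1 and Crtc2 turning to -0.033, -0.18 and -0.14; with the insulin rows left out 0 targets were higher, Crtc3 was at 0.092, and Atf1 and Crtc2 turned to -0.10 and -0.063. Array weights called 5 members higher, adding Creb1 (0.33) and Ppargc1a (0.81). Creb1 also passed with a robust prior (0.29), and Ppargc1a with a pseudocount of 0.1 (0.92), a filter at 5 FPKM (0.77) and the acinar covariate (1.01). Of the 18 alternatives, Creb1 did not pass in 14 and Ppargc1a did not pass in 12. Crtc3 did not pass in KO replicate 1 alone (0.22). Over all genes 4657 calls became 1851 and 1708 under the 2 rescalings, 3063 with the acinar covariate and 3041 in KO replicate 1 alone. For each of these changes the cause was not tested.

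With each library left out in turn, members called lower ranged from 1 (without WT replicate 1 or 3) to 2 and higher from 2 (without WT replicate 1 or 3) to 5 (without KO replicate 3 or WT replicate 2). Targets called lower ranged from 15 to 18 and higher from 1 (without KO replicate 2, WT replicate 2 or WT replicate 3) to 2. All calls ranged from 2481 (without WT replicate 1; 2507 without WT replicate 3) to 5727 (without KO replicate 1). Log2 differences ranged from 0.23 to 0.38 for Creb1, 0.070 to 0.46 for Crem, 0.03 to 0.07 for Atf1, -0.37 to -0.25 for Crtc1, -0.0010 to 0.15 for Crtc2 (reversed without KO replicate 2), 0.23 to 0.25 for Crtc3, -1.05 to -0.71 for Sik1, 0.71 to 0.78 for Sik2, 0.70 to 0.79 for Sik3 and 0.58 to 1.03 for Ppargc1a. Leaving a library out puts fewer samples into the fit.

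Deviations of same-numbered KO and WT libraries from their group means had correlations of -0.21, -0.09 and 0.03 over tested genes for replicates 1, 2 and 3. Pairs of unlike number ran from -0.16 to 0.20. With 3 libraries per group, such correlations cannot decide whether same-numbered libraries shared a day or other handling. With the replicate block 3 members were called higher and 2 lower, and 3865 of all genes were called; the Sik1 share differed by -21.8 points (exact paired permutation p = 0.25, the smallest possible). Depth per gene is unknown, so no counting error can be given, and low values in KO replicate 3 rest on the fewest fragments.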
